A study of Mus musculus with 10 samples.

Results

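Matrix metalloproteinases and their tissue inhibitors were followed in mouse pancreas as 10 genes taken from the table by symbol, of 24421 genes in the count table: the proteinase genes Mmp2, Mmp3, Mmp7, Mmp9, Mmp11, Mmp13 and Mmp14, and the inhibitor genes Timp1, Timp2 and Timp3. All 10 were found, and 9 passed the filter on low counts, the exception being Mmp13. RNA was sequenced from a piece of pancreas tail of female mice aged 12 weeks, 1 library per mouse. Every mouse carried, among other alleles, Ptf1aCreER, which places an inducible Cre recombinase under the control of Ptf1a, a gene of the enzyme-making acinar cells, together with the nuclear fluorescent reporter nTnG. What set the groups apart was Insr, the gene of the insulin receptor. Insr WT mice (Insrw/w, 3 libraries) had 0 floxed alleles, Insr Het mice (Insrw/f, 3 libraries) had 1 and Insr KO mice (Insrf/f, 4 libraries) had 2, and a floxed allele is one that Cre can remove. Libraries are named by genotype and mouse number. By its title, the series is about the insulin receptor of acinar cells, their enzymes and inflammation at the start of pancreatic cancer.

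Matrix metalloproteinases are zinc-dependent enzymes that cut collagens, other matrix proteins and cell surface proteins. Most are secreted as inactive precursors whose propeptide has to be removed, and the tissue inhibitors of metalloproteinases (TIMPs) bind the active enzyme and block it. In pancreas, fibroblasts and stellate cells are known sources of Mmp2, Mmp3, Mmp14 and the TIMPs, macrophages and neutrophils of Mmp9, and ductal or metaplastic epithelium of Mmp7. The libraries are of whole tissue pieces, and the cells that gave each member's reads were not measured.

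The stromelysin Mmp3, the matrilysin Mmp7 and the collagenase Mmp13 lie in 1 cluster on mouse chromosome 9 and share promoter letters not found in the windows of the other members searched. RefSeq windows of 300 bases on build GRCm38.p6, from 250 bases before the annotated start site to 50 after it, were found for 8 of the 10 genes, with 9 windows since Mmp7 has a pair. They were searched on both strands for the AP-1 site TGANTCA, the TATA box TATAAA, the ETS family core AGGAAG and the GC box GGGCGG. An AP-1 match was in 3 of the 9 windows, 1 each for Mmp3, Mmp7 and Mmp13, against 7.81% of all 32851 promoter windows of that length. A TATA match was in the same 3 windows, against 13.6% of all windows. The GC box was in 5 of the 9, those of Mmp11, Mmp14, Timp1, Timp2 and Timp3 (35.7% of all), and AGGAAG in 7 (35.4% of all). The AP-1 match began 46 bases before the start site in Mmp3, 63 in Mmp7 and 35 in Mmp13. A match describes the letters of the window and does not show binding. The windows of the 3 clustered genes and of Timp1, the inhibitor whose level went most closely with Mmp3, are printed 5′ to 3′ on the plus strand, with matches to AP-1, TATA and AGGAAG (or its reverse complement) in capitals.
Mmp3, chr9:7445572-7445871: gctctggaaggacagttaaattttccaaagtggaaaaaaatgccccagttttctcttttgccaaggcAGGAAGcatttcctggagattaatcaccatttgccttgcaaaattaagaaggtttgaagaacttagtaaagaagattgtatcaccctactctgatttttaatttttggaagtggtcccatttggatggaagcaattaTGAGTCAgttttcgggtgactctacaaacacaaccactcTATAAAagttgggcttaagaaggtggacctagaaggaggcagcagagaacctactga
Mmp7, chr9:7691840-7692139: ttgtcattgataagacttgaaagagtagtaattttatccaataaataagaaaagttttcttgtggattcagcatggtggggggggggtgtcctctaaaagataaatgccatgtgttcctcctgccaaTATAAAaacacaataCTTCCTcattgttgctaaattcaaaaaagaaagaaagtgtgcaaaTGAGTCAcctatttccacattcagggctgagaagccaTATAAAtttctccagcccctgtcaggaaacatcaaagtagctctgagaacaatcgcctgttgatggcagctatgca
Mmp13, chr9:7272264-7272563: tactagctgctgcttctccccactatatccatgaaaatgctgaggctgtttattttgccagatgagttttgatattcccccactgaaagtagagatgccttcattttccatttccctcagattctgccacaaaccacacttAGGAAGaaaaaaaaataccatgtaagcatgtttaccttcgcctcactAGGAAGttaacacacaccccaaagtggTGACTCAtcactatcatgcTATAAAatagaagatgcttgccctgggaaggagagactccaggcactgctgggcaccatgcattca
Timp1, chrX:20869916-20870215: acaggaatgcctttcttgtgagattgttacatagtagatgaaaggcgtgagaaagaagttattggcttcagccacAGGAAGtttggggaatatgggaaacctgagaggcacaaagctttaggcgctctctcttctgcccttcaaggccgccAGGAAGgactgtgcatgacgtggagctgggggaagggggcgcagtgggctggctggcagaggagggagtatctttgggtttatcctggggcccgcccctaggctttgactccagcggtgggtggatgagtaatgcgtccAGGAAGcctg

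**Figure D1:**
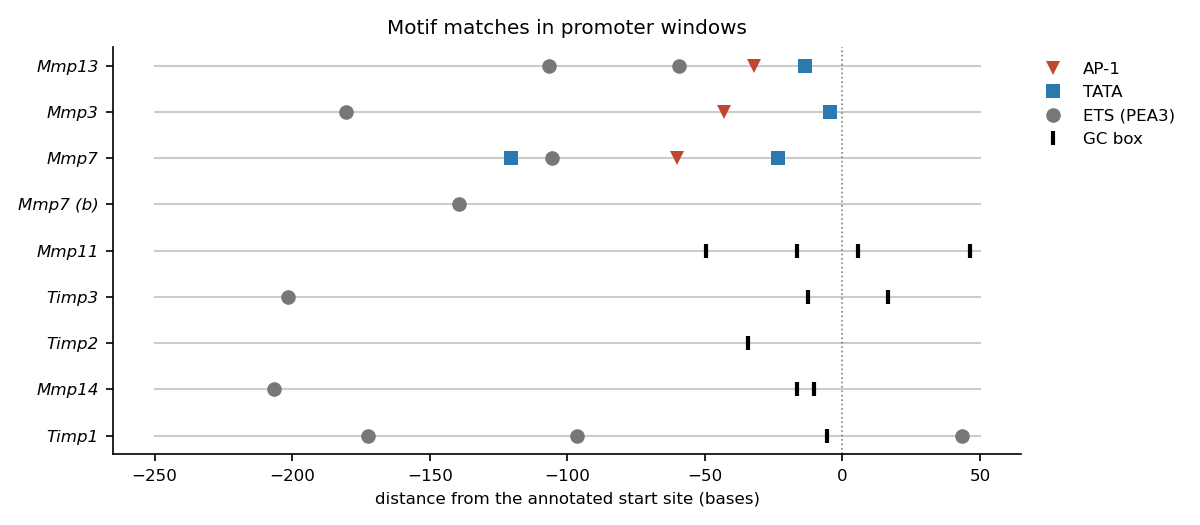
Positions of motif matches in the promoter windows of 8 genes, as distance in bases from the annotated start site (x axis), 1 window per row; Mmp7 (b) is its other window. AP-1 (triangles) and TATA matches (squares) appear in the rows of Mmp13, Mmp3 and Mmp7, and GC boxes (bars) in the rows of Mmp11, Mmp14 and the 3 Timp genes.

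Total gene counts ranged from 11718559 to 19024351 per library, and the depths of the groups overlapped. Digestive enzyme genes, the defining markers of acinar tissue, made up 16.3% of WT-2404, 60.8% of WT-1860 and 74.1% of WT-2067 by gene count, and 65.0% to 80.3% of the 7 libraries with a floxed allele. WT-2404 stands apart in these genes, and the pooled results of the tested members are also given without it. Pooled results of other genes include WT-2404 unless stated. Levels are counts-per-million (CPM) of the TMM-scaled library size, with TMM factors between 0.596 (KO-2126) and 3.54 (WT-2404). In bulk tissue, fewer cells of a type and less RNA per cell cannot be told apart.

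No member passed the test, and the differences between libraries with a floxed Insr allele and WT libraries varied widely between members. Mmp3 and Timp1 had the largest differences and were the members whose 7 floxed libraries all lay below all 3 WT libraries. Mmp2, Mmp9, Mmp14, Mmp7 and Mmp11 had lower fitted levels by smaller factors, and the differences of Timp2 and Timp3 were smaller than 2 standard errors. In edgeR's quasi-likelihood test 0 of the 9 tested members passed an adjusted p of 0.05 in any comparison, as did 0.0% of the 13688 genes tested. For all libraries with a floxed allele against WT, 7 of the 9 were lower at an unadjusted p under 0.05, where 16.5% of all genes were lower at that p, and DESeq2 called 5 of the 9 lower, where it called 8.5% of all genes lower.

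Mmp3, stromelysin-1, degrades proteoglycans and activates other metalloproteinases, and lies at chr9:7445822-7455975 on the plus strand (GENCODE M21, GRCm38). WT-2404 had 19.8 CPM, WT-1860 11.4 and WT-2067 5.88. It stood at 3.16, 3.36 and 3.13 CPM in Het-2066, Het-1770 and Het-2042. It stood at 2.35, 1.05, 3.04 and 1.31 CPM in KO-2079, KO-2070, KO-2124 and KO-2126. The 3 groups did not overlap, with WT highest, Het between and KO lowest, although the step from the lowest Het to the highest KO library was only from 3.13 to 3.04 CPM. The share of all genes whose 3 groups lay apart in this order was not counted. KO libraries were 6.10-fold lower than WT, a log2 fold change of -2.61 (SE 0.41, edgeR adjusted p = 0.116), and Het libraries 3.88-fold lower (log2 -1.95, SE 0.44, edgeR adjusted p = 0.184). The KO against Het difference of -0.65 (SE 0.43) had an edgeR adjusted p of 1.0. Pooling the floxed libraries gave -2.28 (SE 0.34, edgeR adjusted p = 0.0597), lower in 7 of 7 libraries, and the two-sided exact permutation p was 0.00833, the smallest that 3 against 7 mice allow (0.127 when adjusted across all tested genes). DESeq2 called Mmp3 in KO (adjusted p = 3.73e-05), in Het (0.0158) and in the pooled libraries (4.45e-05). Without WT-2404 the pooled difference was -1.74 (edgeR adjusted p = 0.403). These values rest on few counts, 8 to 66 in KO and 36 to 51 in Het libraries.

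Timp1, a secreted inhibitor that binds the Mmp9 precursor and is induced in inflamed and fibrotic tissue, had the largest difference of all members. Its levels were 53.8, 28.6 and 9.44 CPM in WT-2404, WT-1860 and WT-2067. In Het-2066, Het-1770 and Het-2042 they were 5.44, 5.13 and 4.67 CPM. In KO-2079, KO-2070, KO-2124 and KO-2126 they were 7.61, 0.659, 3.60 and 1.52 CPM. The Het libraries lay within 1 CPM of each other, while the KO libraries spread over more than a factor of 10 and KO-2079 lay above all Het libraries. KO against WT gave -3.11 (SE 0.67, edgeR adjusted p = 0.116), an 8.65-fold lower level, and Het against WT gave -2.60 (SE 0.73, edgeR adjusted p = 0.184). KO and Het differed by -0.51 (SE 0.69, edgeR adjusted p = 1.0). The pooled difference was -2.86 (SE 0.55, edgeR adjusted p = 0.0597), and the exact permutation value was again p = 0.00833, beside a DESeq2 adjusted p of 0.000397. Without WT-2404 it was -2.14 (edgeR adjusted p = 0.403). The gene lies inside the gene body of Syn1, which is on the opposite strand, with 0 shared exon bases and 6 to 51 counts of Syn1 per library.

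**Figure D2:**
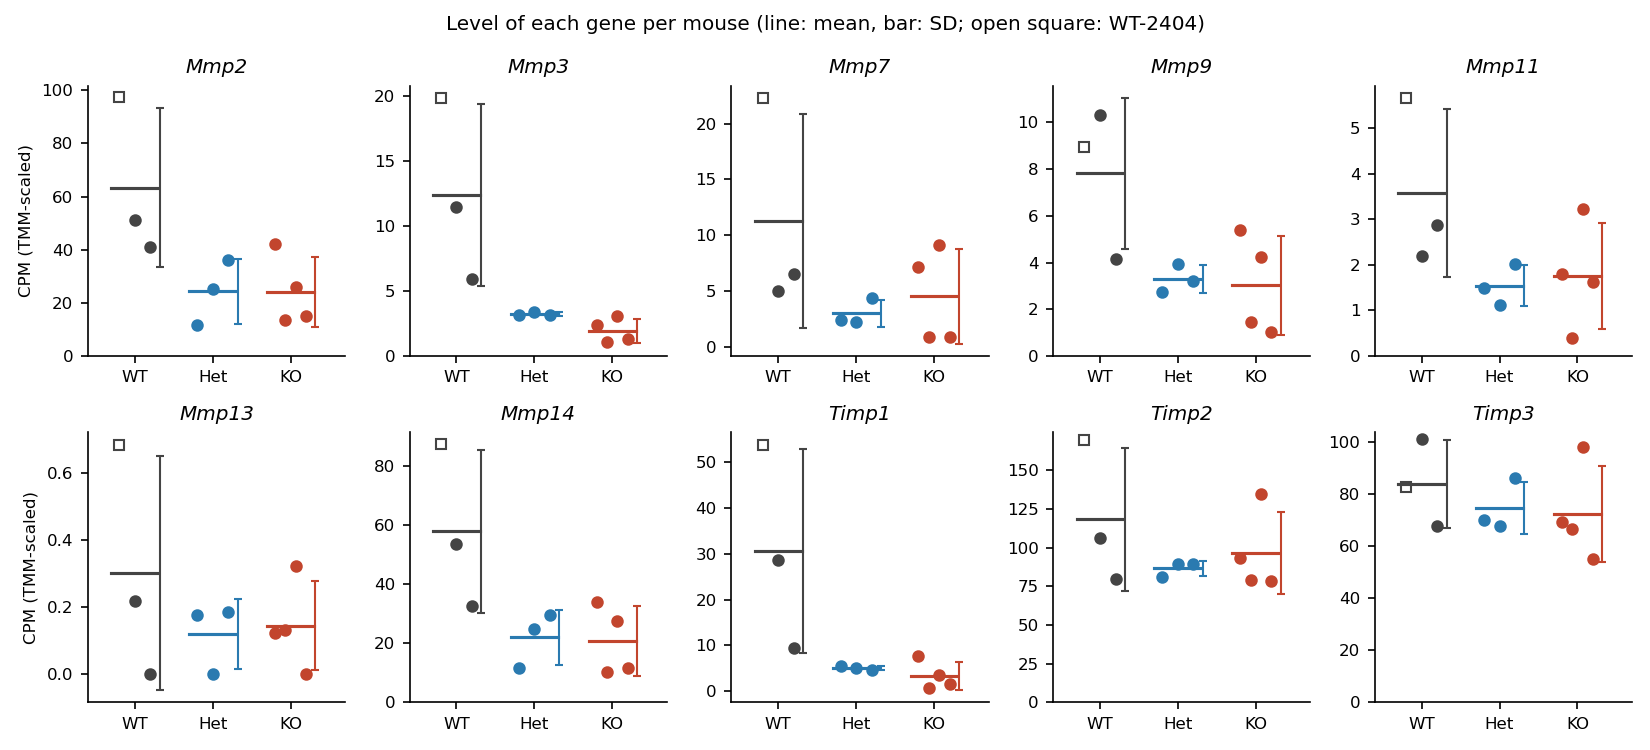
Level of the 10 genes in each mouse, in TMM-scaled CPM (y axis, linear), by genotype (x axis). Points are mice, horizontal lines group means, bars the SD and the open square WT-2404. The WT points of Mmp3 and Timp1 lie above all floxed points, while those of Timp2 and Timp3 overlap them.

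Mmp7, matrilysin, is a small proteinase of epithelial cells. It stood at 22.3, 4.98 and 6.50 CPM in WT-2404, WT-1860 and WT-2067, and at 2.37, 2.24 and 4.36 CPM in the Het libraries in the order Het-2066, Het-1770, Het-2042. In KO libraries it stood at 7.17 and 9.08 CPM in KO-2079 and KO-2124, above 2 of the WT libraries, and at 0.922 and 0.910 CPM in KO-2070 and KO-2126. The Het group lay below WT and the KO group straddled it. The pooled log2 fold change of -1.58 (SE 0.65, edgeR adjusted p = 0.15) became -0.58 without WT-2404 (edgeR adjusted p = 0.767). An antisense transcript, AV064505, shares 123 exon bases with Mmp7 and had 0 or 1 count per library.

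Mmp13, collagenase-3, an enzyme that cuts fibrillar collagen, was barely detected. WT-2404 had 41 counts, WT-1860 4 and WT-2067 0, with 0 to 3 in Het and 0 to 7 in KO libraries, and the gene was not tested. The 0 in WT-2067 allows up to 0.184 CPM, that in Het-1770 up to 0.280 CPM and that in KO-2126 up to 0.303 CPM. Measured levels were 0 to 0.184 CPM in Het and 0 to 0.323 CPM in KO libraries.

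The gelatinases Mmp2 and Mmp9 digest denatured and basement membrane collagen. Mmp2 stood at 97.3, 51.3 and 41.1 CPM in WT-2404, WT-1860 and WT-2067, and at 11.7, 25.1 and 36.2 CPM in Het-2066, Het-1770 and Het-2042. In KO-2079, KO-2070, KO-2124 and KO-2126 it stood at 42.0, 13.6, 25.8 and 14.9 CPM. KO-2079 reached the lowest WT library and the other 6 floxed libraries lay below all 3. Pooled, it was lower by a log2 fold change of -1.38 (SE 0.41, edgeR adjusted p = 0.0715, DESeq2 adjusted p = 0.0174), and -0.91 without WT-2404. Mmp9 stood at 8.94, 10.3 and 4.17 CPM in the same WT order, at 2.72 to 3.92 CPM in Het and at 1.01 to 5.38 CPM in KO libraries. It was the proteinase for which WT-2404 was not the highest library. Its pooled difference of -1.29 (SE 0.42, edgeR adjusted p = 0.0874, DESeq2 adjusted p = 0.0434) moved least among the tested proteinases without that library, to -1.15.

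Mmp14, the membrane-bound enzyme that activates the Mmp2 precursor together with Timp2, ran parallel to Mmp2. It stood at 87.6, 53.9 and 32.7 CPM in WT-2404, WT-1860 and WT-2067, at 11.7, 24.9 and 29.5 CPM in Het-2066, Het-1770 and Het-2042, and at 34.0, 10.3, 27.6 and 11.5 CPM in KO-2079, KO-2070, KO-2124 and KO-2126. Again KO-2079 alone among the floxed libraries reached the WT range. For the pooled libraries the log2 fold change came to -1.43 (SE 0.41, edgeR adjusted p = 0.0689, DESeq2 adjusted p = 0.0154), and -0.98 without WT-2404. KO and Het libraries differed by -0.066 (SE 0.48) in Mmp14, -0.0091 (SE 0.47) in Mmp2 and -0.052 (SE 0.51) in Mmp9, each with an edgeR adjusted p of 1.0. Mmp11, stromelysin-3, a proteinase of stromal cells next to epithelium, was rare, at 2.19 to 5.66 CPM in WT, 1.12 to 2.03 in Het and 0.395 to 3.23 in KO libraries. Its pooled difference of -1.09 (SE 0.45) had an edgeR adjusted p of 0.141 and became -0.57 without WT-2404. Its exons share 155 bases with Chchd10 on the opposite strand, which had 287 to 636 counts per library against 3 to 70 of Mmp11 in the libraries other than WT-2404, so its values are uncertain if strand was not used in counting.

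Timp2, the inhibitor that also takes part in Mmp2 activation, averaged 118 ± 46.1 CPM over the WT mice (SD, n = 3). The Het mean was 86.6 ± 4.81 CPM (SD, n = 3) and the KO mean 96.5 ± 26.3 CPM (SD, n = 4). Timp3, an inhibitor that stays bound to the matrix and also blocks ADAM proteinases, was at 84.0 ± 16.8, 74.7 ± 9.99 and 72.4 ± 18.3 CPM in the same order. The groups overlapped for both. Their pooled log2 fold changes of -0.37 (SE 0.26, edgeR adjusted p = 0.353) and -0.19 (SE 0.22, edgeR adjusted p = 0.591) did not pass. Without WT-2404 they were -0.011 for Timp2 and -0.19 for Timp3. Timp3 lies within Syn3 on the opposite strand and shares 1733 exon bases with it, but Syn3 had only 8 to 38 counts per library.

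Set against each other per library type, 4 of the 9 tested members (Mmp2, Mmp3, Mmp14 and Timp1) were called lower by DESeq2 in KO against WT, where it called 5.27% of all genes lower, and Mmp3 and Timp1 in Het against WT, where it called 1.93% lower. In edgeR 5 and 6 members had an unadjusted p under 0.05, beside 13.9% and 11.6% of all genes lower at that p. Ranges did not overlap for 2 members in KO against WT (Mmp3 and Timp1, 9.15% of all genes lower without overlap), for 7 in Het against WT (13.5%) and for 2 in the pooled comparison (5.84%). In KO against Het, Mmp3 alone did not overlap (1.16%), and 0 members had an unadjusted p under 0.05 in edgeR (0.752% of all genes) or were called by DESeq2 (0.0%). The comparisons against WT share the 3 WT libraries. With 3 against 3 mice, an exact permutation test cannot go below 0.1, the value that 7 members gave in Het against WT.

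**Figure D3:**
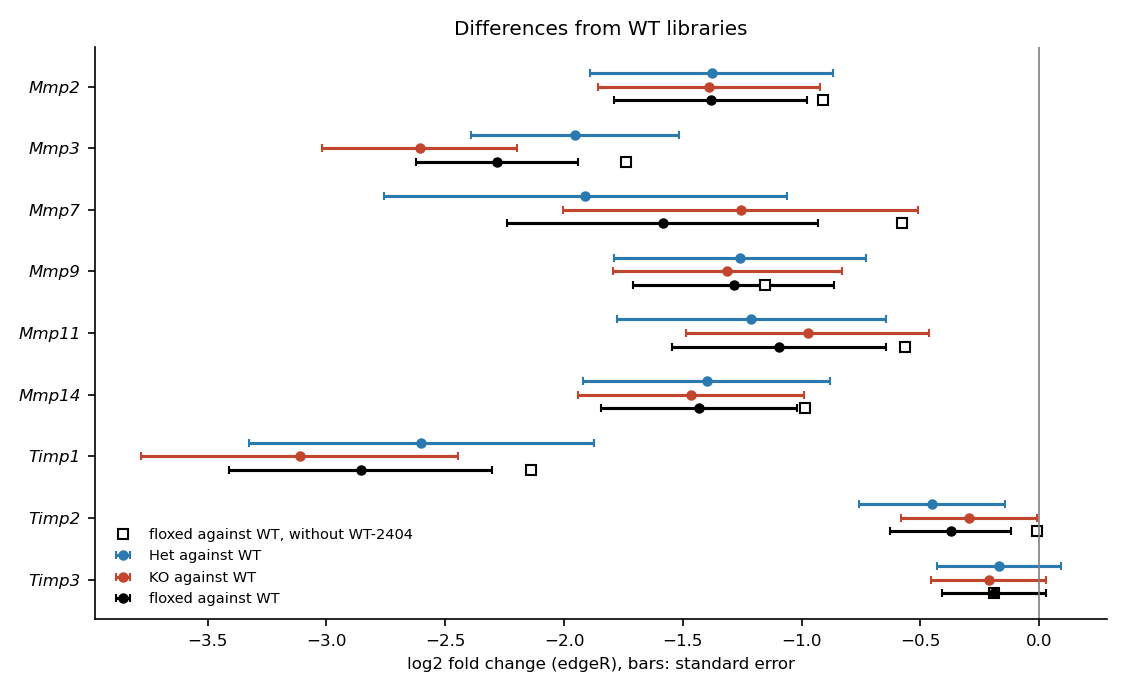
Log2 fold changes of the 9 tested genes (rows) from edgeR, with standard errors as bars, for Het against WT (blue), KO against WT (red) and all floxed libraries against WT (black). Open squares give the pooled value without WT-2404, which for Timp2 is -0.011 and for Timp1 -2.14.

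The make-up of the inhibitor transcripts differed between WT and floxed libraries. Per kilobase of merged exons, so that genes can be compared, Timp1 made up 53.0%, 44.7% and 27.0% of the summed CPM per kilobase of the 3 Timp genes in WT-2404, WT-1860 and WT-2067. It made up 17.2%, 15.6% and 13.6% in Het-2066, Het-1770 and Het-2042, and 20.8%, 2.53%, 7.99% and 5.96% in KO-2079, KO-2070, KO-2124 and KO-2126. Every floxed library was thus below every WT library in this share, but how many other sets of 3 genes separate this way was not counted. Timp2 took 58.4% to 70.4% in floxed libraries against 37.9% to 51.8% in WT. The 3 shares add up to the whole, so a lower share of Timp1 raises those of the others. The level of Timp2 itself overlapped, at 20.4 to 43.5 CPM per kilobase in WT and 20.2 to 34.6 in floxed libraries. Timp2 had the largest share of the 3 in all 7 floxed libraries and in WT-2067. Among the proteinases, Mmp2 had the highest level per kilobase in all libraries but KO-2124, where Mmp7 was higher, at 8.50 against 7.65 CPM per kilobase. Mmp9, Mmp11 and Mmp13 each made up at most 7.48% of the summed proteinase level. Summed proteinase over summed inhibitor levels ran from 0.544 to 0.743 in WT, 0.303 to 0.599 in Het and 0.266 to 0.691 in KO libraries, and the groups overlapped in this ratio. These shares and ratios were computed on the members themselves and carry no test.

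**Figure D4:**
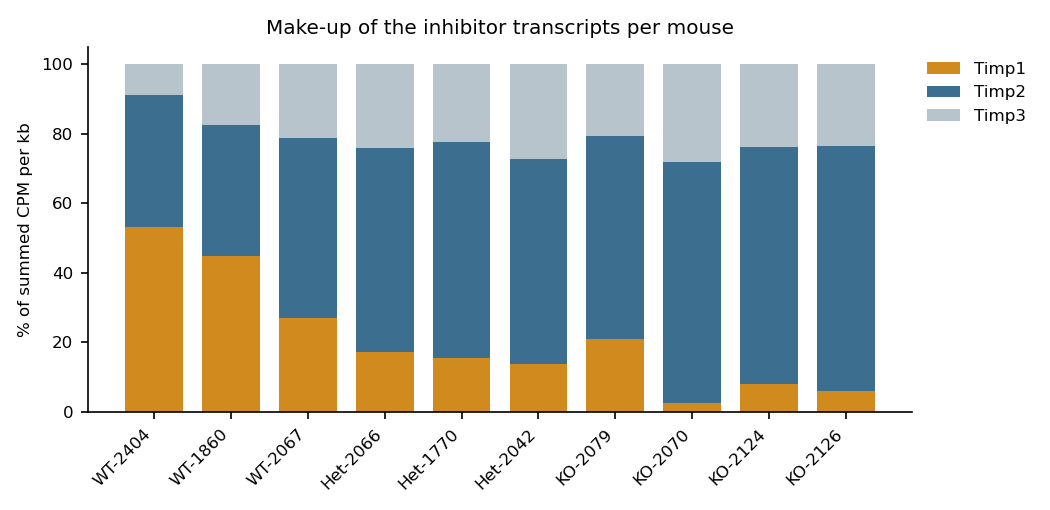
Share of each Timp gene in the summed CPM per kilobase of the 3 genes (y axis, percent) for the 10 libraries (x axis). Timp1 lies between 27.0% and 53.0% in WT and between 2.53% and 20.8% in floxed libraries.

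Because fibroblasts are a known source of most members, each gene was also expressed per 1000 counts of 12 summed fibroblast marker genes. The largest of the 12 in every library was Dcn. Its groups overlapped, at 159 to 215 CPM in WT, 162 to 190 in Het and 158 to 237 in KO libraries. The marker Lum stood at 37.3 to 93.6 CPM in WT and 10.2 to 25.9 CPM in floxed libraries. The scale therefore weighs Dcn most and follows markers such as Lum less. On this scale Mmp3 and Timp1 remained below all WT libraries in all 7 floxed libraries, while Timp2 lay above them. Mmp3 had 24.8, 20.4 and 14.1 such counts in WT-2404, WT-1860 and WT-2067, 8.40 to 9.27 in Het and 3.42 to 6.37 in KO libraries. These 3 ranges did not overlap, but the share of all genes with 3 separate groups was not counted. KO-2070 and KO-2126 had only 8 and 13 counts of Mmp3. Timp1 had 67.4, 51.0 and 22.7 in the same WT order, 12.5 to 16.0 in Het and 2.14 to 19.2 in KO libraries. Timp2 had 190 to 212 in WT, 233 to 239 in Het and 237 to 282 in KO libraries. The log2 difference between floxed and WT means was -1.58 for Mmp3 (exact permutation p = 0.00833, two-sided), -2.23 for Timp1 (exact p = 0.0167) and 0.35 for Timp2 (exact p = 0.00833), beside a median of 0.67 over the genes tested. Adjusted over all genes tested, each exact p was 0.0762, and 0 members and 0.0% of all genes passed. Groups without overlap were found for 1.90% of all genes in the lower direction and 9.16% in the higher. Mmp2 and Mmp14 overlapped between groups, at -0.78 (exact p = 0.075) and -0.82 (exact p = 0.05), as did Mmp7, Mmp9, Mmp11 and Timp3. Without WT-2404 the differences were -1.40 for Mmp3, -1.90 for Timp1 and 0.40 for Timp2.

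**Figure D5:**
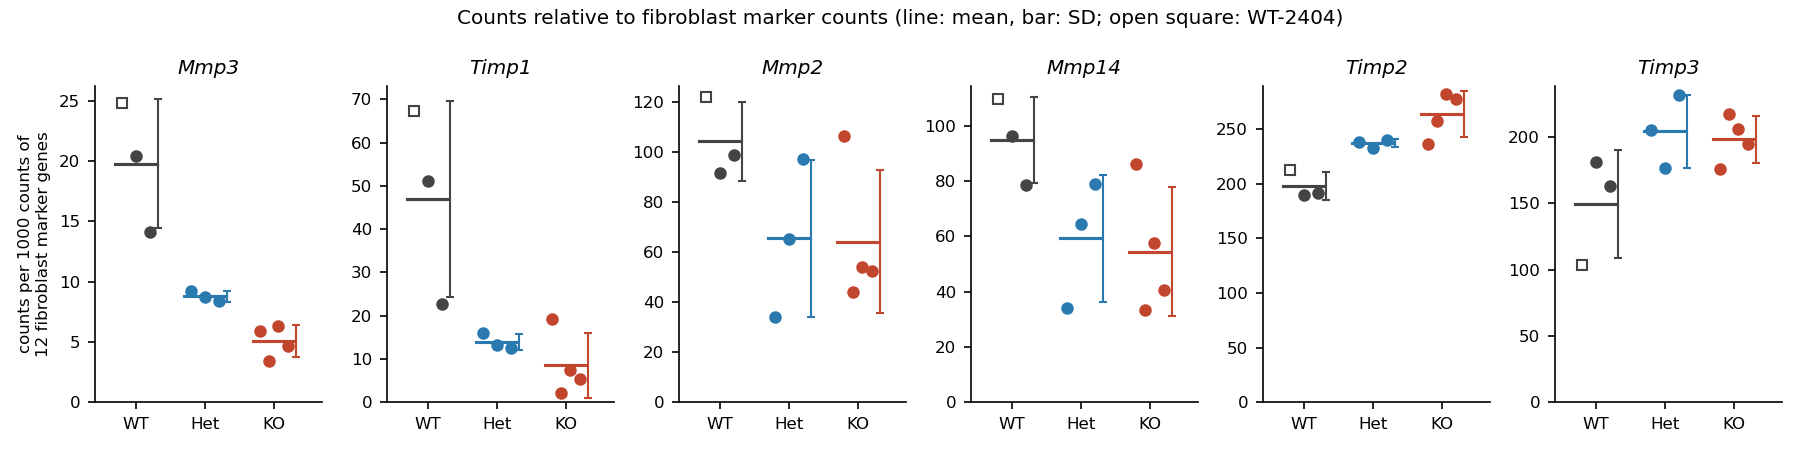
Counts of 6 genes per 1000 counts of 12 fibroblast marker genes (y axes, linear from 0) by genotype (x axis), with points for mice, lines for means, bars for the SD and the open square for WT-2404. Mmp3 and Timp1 stay lower and Timp2 is higher in all floxed libraries than in all WT libraries.

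Markers of fibroblasts, macrophages and ducts were mostly lower in floxed libraries, while most acinar, endothelial and adipocyte markers were higher. Of all genes, 16.5% were lower in the pooled floxed libraries at an unadjusted p under 0.05 in edgeR, and DESeq2 called 8.5% lower. Of the 12 fibroblast markers, 12 were lower (48.8% of all genes were lower). In edgeR 9 had an unadjusted p under 0.05 and 0 passed the adjusted threshold, with 6 called by DESeq2. Their summed level was 416 to 799 CPM in WT, 341 to 385 in Het and 283 to 478 in KO libraries. Lum, a collagen-binding proteoglycan, Thy1, a fibroblast surface protein, and Col6a3, a collagen chain, had log2 fold changes of -1.60, -1.61 and -1.39 (SE 0.31, 0.34 and 0.30). Without WT-2404 these were -1.08, -1.14 and -0.97. All 12 macrophage markers were lower, 12 at an unadjusted p under 0.05 in edgeR, 0 past the adjusted threshold and 10 called by DESeq2. They summed to 482 to 1949 CPM in WT, 262 to 399 in Het and 155 to 567 in KO libraries. Ranges did not overlap for 1 of the 12, where 5.84% of all genes were lower without overlap. The markers Fcgr1, C1qa and C1qc were at -2.05, -1.70 and -1.79. Without WT-2404 these were -1.24, -0.89 and -0.95. No fibroblast or macrophage marker was at 0 in any library. Neutrophil markers summed to 158 CPM in WT-2404 and to 1.19 to 15.1 CPM in the other 9 libraries, where Mpo and Elane, which mark neutrophil precursors, were at or near 0. Duct markers summed to 1089 to 1641 CPM in WT and 565 to 943 CPM in floxed libraries, with 8 of 10 lower, 7 of them at an unadjusted p under 0.05 in edgeR (0 adjusted) and 6 called lower by DESeq2. Of 9 tested lymphocyte markers 9 were lower, 5 at an unadjusted p under 0.05 (0 adjusted in edgeR, 2 by DESeq2). In the other direction, 30 of 31 tested acinar enzyme genes were higher (median 1.22), as were 7 of 8 endothelial and 5 of 5 adipocyte markers, where 51.2% of all genes were higher. Of these 4, 1 and 0 had an unadjusted p under 0.05, 0 passed the adjusted threshold in edgeR, and 2, 1 and 0 were called by DESeq2. The shares of all genes higher at that p or called higher by DESeq2 are not given here. The share of acinar enzyme genes in the gene counts overlapped between groups. It was 16.3% in WT-2404 and 74.1% in WT-2067, against 65.0% to 80.3% in floxed libraries. Mesothelial markers were split, with 2 lower and 2 higher. The part of these cell types in the members' differences was not tested beyond the fibroblast and macrophage ratios.

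Of the other genes of the family, 7 of 16 further metalloproteinase genes passed the filter, 6 of them lower in the pooled comparison. In edgeR 0 passed the adjusted threshold and 2 had an unadjusted p under 0.05, and DESeq2 called 2. Of all genes, 48.8% were lower, 16.5% at that p, and DESeq2 called 8.5% lower. Mmp19, a widely expressed proteinase, and Mmp23 had pooled log2 fold changes of -1.56 (SE 0.39) and -1.21 (SE 0.35), with edgeR adjusted p of 0.0618 and 0.0663 in that order. Mmp12, macrophage elastase, was at -1.44 (SE 0.67, edgeR adjusted p = 0.186), and the membrane-bound Mmp15 at 0.073 (SE 0.18, edgeR adjusted p = 0.815). Without WT-2404, Mmp19 was at -0.77, Mmp23 at -0.91, Mmp12 at -1.48 and Mmp15 at 0.074. The neutrophil collagenase Mmp8 had 136 counts in WT-2404 and 0 to 6 in the other 9 libraries. Mmp1a, Mmp1b and Mmp21 had 0 counts in every library. Of 6 further tested genes listed as inhibitors or related proteins, 4 were higher and 2 lower (median 0.58), with 0 past the adjusted threshold in edgeR. At an unadjusted p under 0.05 in edgeR, 1 was higher (Spock2) and 2 were lower, with the same numbers by DESeq2. A2m, a plasma protein that traps proteinases, was at -3.13 (SE 0.75, edgeR adjusted p = 0.0597) and Tfpi2, an inhibitor of serine proteinases, at -1.80 (SE 0.48, edgeR adjusted p = 0.0618). The matrix proteoglycan genes Spock2 and Spock1 were at 0.89 (SE 0.30, edgeR adjusted p = 0.0894) and 1.22 (SE 0.67), and the inhibitor gene Timp4 at 1.44 (SE 0.88). Without WT-2404, A2m was at -1.89, Tfpi2 at -1.45, Spock2 at 0.54, Spock1 at 0.64 and Timp4 at 1.24.

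Genes that act with the members showed 0 calls in edgeR. In the pooled comparison 48.8% of all genes were lower, 16.5% at an unadjusted p under 0.05 in edgeR, and DESeq2 called 8.5% lower. Shares of all genes called higher are not given here. Of 16 ADAM and ADAMTS proteinase genes, 15 were lower in the pooled libraries, 11 at an unadjusted p under 0.05 and 8 by DESeq2, led by Adam12 at -2.91 (SE 0.50, edgeR adjusted p = 0.0597). Without WT-2404, Adam12 was at -2.09. In the plasminogen system, which activates metalloproteinase precursors, 6 of 6 tested genes were lower, 4 at that p and 4 by DESeq2, among them the urokinase receptor Plaur at -1.67 (SE 0.46) and the proteinase inhibitor gene Serpine2 at -1.49 (SE 0.32). Of 11 activators and docking proteins, 7 were lower, all 7 at an unadjusted p under 0.05 and by DESeq2, and 4 were higher, 1 of them at that p and by DESeq2. The lower ones included Cd44, a surface receptor that holds Mmp9, at -1.89 (SE 0.44) and Lcn2, a protein that binds Mmp9, at -2.59 (SE 0.53). Of the proprotein convertases, Pcsk6 was at 0.67 (SE 0.20, edgeR adjusted p = 0.0715, DESeq2 adjusted p = 0.0353) and Furin at 0.17 (SE 0.25). Of 13 tested cytokine and receptor genes known to induce metalloproteinases, 11 were lower, 7 at that p and 5 by DESeq2, with Tgfb1 at -1.47 (SE 0.27). Of 15 tested transcription factor genes, 12 were lower, 5 at that p and 4 by DESeq2, and 3 were higher, 1 at that p and 0 by DESeq2. Junb, an AP-1 subunit, was at -1.21 (SE 0.35), Runx1 at -1.91 (SE 0.42) and Runx2, a regulator of Mmp13 in bone, at -1.89 (SE 0.55), while the ETS family gene Ets2 was at 0.45 (SE 0.20) and the AP-1 subunit Jund at 0.19 (SE 0.29). All 16 matrix substrate genes were lower, 14 at that p and 12 by DESeq2, with Vcan at -2.11 (SE 0.39) and Eln at -1.35 (SE 0.29). Without WT-2404, Vcan was at -1.48 and Eln at -0.97. The medians were -1.38 for the 9 tested members and -1.82 for the substrates, beside 0.016 for all genes tested.

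Over the 10 libraries, Mmp2 and Mmp14 were each other's closest member (Pearson r of log2 CPM 0.981, and 0.970 over the 9 libraries without WT-2404), and Fn1, the fibronectin gene, was among the 3 genes most like either, at 0.986 and 0.989. Mmp3 and Timp1 were each other's closest member, at 0.963 (0.940 without WT-2404). The genes most like Mmp3 were Tubb6, Cd53 and Tlr1, at 0.975 to 0.978, of which Cd53 is a surface protein of white blood cells. Col16a1, a collagen gene, was most like Mmp14, at 0.992. Mmp11 was most like Bub1b and Dtl, genes of dividing cells, at 0.978 and 0.971, and Mmp9 most like Ivl, at 0.981. Kif18b and Aspm, also genes of dividing cells, were among the 3 genes most like Timp2, at 0.963 and 0.961. Mmp7 was most like Apobr, at 0.979. The highest r of Timp3 to another member was 0.718, to Mmp9, and 0.815, to Timp2, without WT-2404. These correlations are descriptions, since the libraries share tissue make-up and scaling, and the 3 WT libraries are at the high end for most of these genes.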

How the data were processed

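RNA of 10 pancreas tail pieces, 1 per mouse, was analysed. The labels list a further WT mouse (not analysed here), and 1 allele shared by all groups is not reported here. Per the labels' protocols, the kit keeps strand and selects mRNA. The values deposited by the authors are raw counts, 1 row per symbol. The submitters' processing notes name DRAGEN, STAR, Cufflinks and mm10. The counting settings are not given in the sources used here. All columns matched a sample (0 left over), and 2 rows that name no gene stayed out (2.59% to 8.71% and 0.101% to 0.584% of counts).

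Of 24421 genes, 13688 passed edgeR's filterByExpr (minimum count 10) and entered 1 fit over all libraries with TMM scaling, edgeR 4.0.16 quasi-likelihood (two-sided, Benjamini-Hochberg, threshold 0.05, SE from the quasi-F statistic) and no covariates. The pooled comparison sets the mean of the Het and KO coefficients against WT. DESeq2 1.42.0 was the other tool. Exact permutation tests used absolute differences of mean log2 CPM (prior count 2) or of log2 ratios (pseudocount 0.5). Their p was adjusted over all tested genes. For the log2 ratios this departs from the design, which had set adjustment over the 10 members. Each library is a mouse, so p-values measure the spread between mice, and no batch is given. Replicates differed by more than sampling noise (chi-square per degree of freedom 28.7 to 1041). Exon lengths are from GENCODE M21 (GRCm38), the build of mm10. The scripts were tested on simulated counts.

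The members and lists were chosen with earlier results of these data known. From each list, up to 3 genes per direction with the smallest p in the pooled comparison could be named, and from those most like a member, 3. Mmp8, Dcn and genes at 0 were named after their values were seen. Alternatives were DESeq2, library size alone, no filter on low counts, enzyme genes left out and each library left out in turn, and for the ratios a macrophage reference of 12 genes.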

Additional observations from a re-analysis of the deposited data

Results flagged for a closer look

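Mmp2 per 1000 fibroblast marker counts stood at 106 in KO-2079 and at 44.1 to 53.9 in the other 3 KO libraries. The gap was 0.841 of the group's range, above Dixon's 95% critical value for 4 samples. It was 1 of 29 measures checked in the KO group, where chance gives about 1.45, and groups of 3 libraries were not checked. The summed fibroblast level of KO-2079 was 395 CPM, within the KO range of 283 to 478 CPM.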

How the results depend on the processing

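The low direction of Mmp2, Mmp3, Mmp7, Mmp9, Mmp11, Mmp14, Timp1 and Timp3 against WT held in Het, KO and pooled comparisons under every alternative run, and that of Timp2 in all but KO against WT without WT-2404, where it was 0.062 (-0.51 to 0.062 without single libraries). The number of members past the threshold, 0 in edgeR, was 4, 2 and 5 with DESeq2 and 5, 7 and 9 by library size alone in KO, Het and pooled libraries against WT, and 1 (pooled) with no filter on low counts. Over all genes the number was 1011, 391 and 1750 with DESeq2 and 2841, 3140 and 7121 by library size alone, and 8 (pooled) with no filter. By library size alone the median of all genes was -1.17, -1.36 and -1.26 in these comparisons. Leaving out single libraries gave 0 to 3, 0 to 2 and 0 to 5 members and 0 to 1932, 0 to 1160 and 0 to 2829 genes. The highest of these came without WT-2067, and without KO-2079 or KO-2124 the pooled number was 2 members, with 50 and 490 genes. Without WT-2404 it was 0 members, with adjusted p of 0.403 to 0.989 in edgeR. Leaving out the enzyme genes changed no call. The cause of these shifts was not tested. KO against Het had 0 calls under every alternative, and its small differences changed sign: Mmp2 to 0.25, Mmp9 to 0.28, Mmp14 to 0.26 and Timp3 to 0.21 by library size alone, and without single libraries Mmp2 ranged from -0.42 to 0.40, Mmp9 from -0.46 to 0.22, Mmp11 from -0.26 to 0.52, Mmp14 from -0.40 to 0.20, Timp2 from -0.067 to 0.24 and Timp3 from -0.25 to 0.071. With the macrophage list as the reference, Mmp2, Mmp9, Mmp11 and Mmp14 turned to 0.094, 0.14, 0.38 and 0.049, where the median of all genes was 1.55. Mmp3 and Timp1 remained lower, at -0.71 (exact permutation p = 0.0417) and -1.36 (exact permutation p = 0.0333), but their groups overlapped on this reference. Adjusted over all genes tested, the exact permutation p was 0.0722 for Mmp3 and 0.0680 for Timp1, and 0 genes passed. Per 1000 macrophage counts, Mmp3 had 12.1 in Het-2066 against 10.2 in WT-2404. Timp1 had 20.8 in Het-2066 against 19.6 in WT-2067. No paired analysis was possible because the mouse numbers are not shared between groups. Counts under 10 in a library limit Mmp3, Mmp7, Mmp11 and Timp1 in KO-2070 or KO-2126, and Mmp13 in every library but WT-2404.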
